A study of Mus musculus with 18 samples.

Results

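The comparison asked whether the change in gene expression that whole mouse ovaries undergo around birth, from late embryonic stage E17.5 to the day of birth, P0, was the same with and without Elavl2. It used 12 of the 18 samples of the series, with 3 arrays in each of 4 groups: wild type at E17.5, Elavl2 knockout at E17.5, wild type at P0 and Elavl2 knockout at P0. The quantity described is the interaction, the knockout change from E17.5 to P0 minus the wild-type change, which equals the P0 difference between genotypes minus the E17.5 difference. All 12 samples were chosen by their labels and no measured value was used. Each sample was total RNA of XX gonads, preserved in RNAlater after dissection and hybridised to a 1-colour Agilent array. The labels call the animals Elavl2 knockout or wild type and the samples mixed, without saying what was mixed. The strain, the deleted part of the gene and the number of animals per sample were not given in the sources used here. Replicates are not stated to be separate animals, and each p-value then reflects only how far these samples vary, which may be technical.

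Around birth the mouse ovary passes from nests of meiotic germ cells to primordial follicles, in which single oocytes arrested in meiotic prophase are enclosed by pregranulosa cells. Oocytes switch on the genes of the zona pellucida, the glycoprotein coat of the egg, and the maternal genes used after fertilisation, while genes of meiotic prophase are switched off. ELAVL2 belongs to the ELAV (Hu) family of RNA-binding proteins, which bind U-rich and AU-rich stretches in messenger RNA and are known for effects on RNA stability and translation. In the ovary, Notch ligand on oocytes and Notch receptors on pregranulosa cells are known to take part in nest breakdown. Whole ovaries were measured, so fewer cells of a type and less RNA per cell cannot be told apart.

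Levels are log2 signals relative to the 75th percentile of each array's probes, so that a level of 0 is that percentile and a difference of 1 is a 2-fold difference. Between 63.4% and 75.2% of probes were well above background on these 12 arrays, and replicates of a group correlated at r from 0.965 to 0.994 across probes. Arrays came from 2 scanner runs: all P0 arrays and replicates 1 and 2 of both E17.5 groups were in run B, and replicate 3 of each E17.5 group was in run A. The model removed a run term, so that fitted changes over time differ from plain differences of group means, whereas the interaction does not. The 3 P0 wild-type arrays sat alone on 1 slide, so that slide and group cannot be told apart there. Markers of the labelled tissue were present: the median level of 35 germ cell genes lay between 1.71 and 2.45 on the 12 arrays, and that of 34 pregranulosa and granulosa genes between -0.11 and 0.36. Red cell RNA varied widely, with the median level of 23 red cell genes between -3.75 and 2.45 on the E17.5 arrays and between -4.22 and -0.31 on the P0 arrays, and its part in other genes' values was not tested.

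Elavl2 itself was checked first. Its log2 level was 3.58, 3.60 and 3.35 in wild type and 2.98, 2.77 and 2.19 in knockout at E17.5. At P0 it was 4.50, 4.59 and 4.48 in wild type and 3.31, 2.94 and 3.24 in knockout. The knockout arrays lay below the wild-type arrays at both stages without overlap, while the probe still gave signal in the knockout, and whether the probe lies in the deleted part is not given in the sources used here. The Elavl2 interaction was -0.49 (SE 0.17, 95% interval -0.87 to -0.12, limma adjusted p = 0.088), which did not pass the threshold. Another Elavl2 probe gave an interaction of -0.65, with changes of 1.36 in wild type and 0.71 in knockout. Of the relatives of Elavl2, Elavl3 had an interaction of -1.14 (limma adjusted p = 0.021), with changes of 0.67 in wild type and -0.47 in knockout.

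The interaction passed an adjusted p of 0.05 for 2008 of 19299 genes (10.4%), of which 826 (4.28%) were positive and 1182 (6.12%) were negative, by limma with Benjamini-Hochberg adjustment. Of these, 172 positive (0.891%) and 546 negative genes (2.83%) were at least 2-fold. The knockout minus wild-type difference was called for 800 genes at E17.5 (4.15%; 1.33% up, 2.81% down) and 6652 at P0 (34.5%; 18.3% up, 16.2% down). For the negative genes, the knockout difference at P0 was itself called in the same direction for 1076, and the E17.5 difference was not called for 1105. For the positive genes these numbers were 725 and 746. An E17.5 difference opposite to the interaction was called for 60 positive and 36 negative genes. Most called interactions therefore went with a genotype difference called at P0, which is itself a part of the interaction. Most had no difference called at E17.5, but so did most genes, since only 4.15% of all genes were called there. Without a run term the counts were 448 positive and 583 negative, and without replicate 2 of the P0 wild type they were 383 and 665. Leaving out E17.5 knockout replicate 2 gave 465 and 757, and dropping either E17.5 replicate 3 gave 477 and 853.

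Genes were then sorted by the wild-type change. From E17.5 to P0 the wild type changed in 8354 genes (43.3%; 22.1% up, 21.2% down) and the knockout in 7182 (37.2%; 18.2% up, 19% down). In wild type, 1549 genes rose (8.03% of genes tested) and 543 fell (2.81%) by at least 2-fold with an adjusted p under 0.05. A change was called lost when the interaction opposed it with an adjusted p under 0.05 and the knockout kept less than 25% of it on the log2 scale, and partial when the knockout kept more. It was called kept when the interaction was not called and the knockout changed in the same direction with an adjusted p under 0.05. Genes with neither call were left undecided. These classes use the wild-type arrays both in the choice of genes and in the interaction, so their sizes are a description and carry no test.

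Of the wild-type rises, 349 were lost, 136 partial, 449 kept and 10 larger in knockout, and 605 were undecided. Of the wild-type falls, 44 were lost, 44 partial, 337 kept and 4 larger, and 114 were undecided. Lost rises were 22.5% of rises and lost falls 8.10% of falls. The lost rises had a median wild-type change of 1.70 and a median knockout change of -0.080, and their median genotype difference was 0.43 at E17.5 and -1.44 at P0. The kept rises had medians of 1.49 in wild type and 1.38 in knockout, and the kept falls -1.26 and -1.13. Kept does not mean equal: the 95% interval of the interaction lay wholly above a loss of 50% of the wild-type change for 122 of the 449 kept rises and 116 of the 337 kept falls. When genes were picked by the knockout change alone, 687 rose at least 2-fold (3.56%) and 582 fell (3.02%). The median wild-type change of these risers was 1.19 against 1.41 in knockout. When picked by the wild-type change alone, the 1549 risers had a median of 0.50 in knockout against 1.58 in wild type. Both changes share the run term and the spread of the joint fit, so these picks are not independent of the other genotype.

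**Figure D1:**
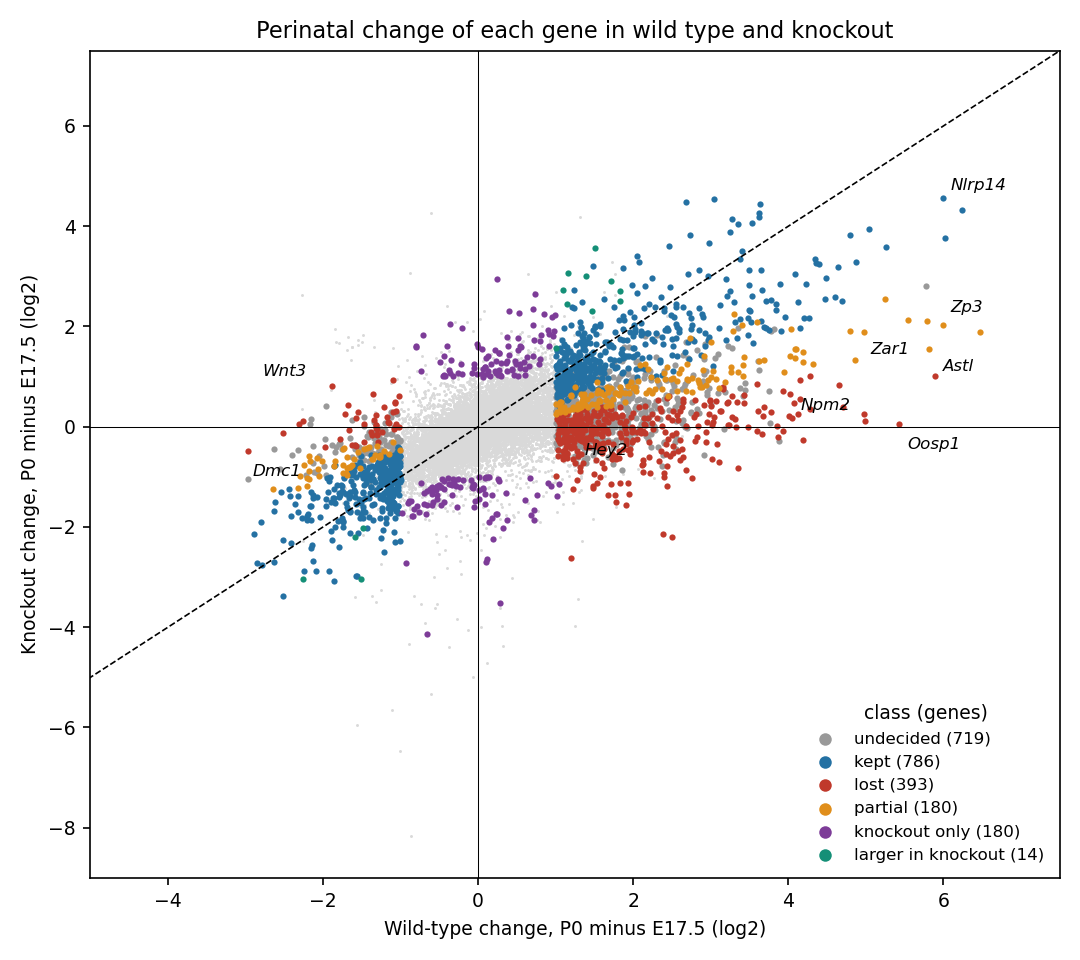
Change of each of 19299 genes from E17.5 to P0 in wild type (horizontal axis, log2) against knockout (vertical axis, log2), with classes in colour, genes without a 2-fold wild-type change in grey and the line of equal change dashed. The red points of the 349 lost rises lie along zero on the vertical axis, while the kept genes lie around the line of equal change.

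The class of a gene was tied to its brightness. All 12 arrays were well above background for 162 of the 349 lost rises, for 105 of the 136 partial, for 313 of the 449 kept and for 193 of the 605 undecided. Among the 9649 genes above the median level, 155 rose at least 2-fold in wild type, of which 21 were lost, 25 partial and 97 kept. With another background correction and quantile normalization 117 rises were lost, and 73 of them were among the 349. Across the values nearest to the threshold, Ipcef1 kept 24.98% of its wild-type rise and Prodh 24.7%, against 25.1% for Nrn1l and 25.2% for Patl2, and these 4 genes were chosen for that position.

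Genes of oocyte growth and the zona pellucida held the most lost and partial rises among the gene lists. They also held the most wild-type rises of at least 2-fold. Of 60 listed genes 44 were measured, 15 had a negative interaction and none a positive one, against 6.12% and 4.28% of all genes. Their median interaction was -1.41 against -0.016 for all genes, with a median change of 3.63 in wild type and 1.93 in knockout. Of 36 members that rose at least 2-fold in wild type, 6 were lost, 9 partial, 20 kept and 1 undecided. Among all 1549 rises, 22.5% were lost, 8.78% partial, 29.0% kept and 39.1% undecided. Thus both kept and partial rises were more frequent in the list than among all rises, while lost and undecided rises were less frequent. The median interaction of the list was -0.44 when the E17.5 difference came from the 2 run A arrays alone and -2.04 when it came from the 4 run B arrays, and the cause was not tested. The promoters of 1 lost, 2 partial and 1 kept member are printed to show the start sites of genes that rose together in wild type and parted in knockout. They are RefSeq sequences of build GRCm38.p6, 250 bases before to 50 after the start site, 5′ to 3′ on the gene's strand. Capitals mark CANNTG, the E-box, which basic helix-loop-helix factors such as the oocyte factor FIGLA are known to bind.
Oosp1: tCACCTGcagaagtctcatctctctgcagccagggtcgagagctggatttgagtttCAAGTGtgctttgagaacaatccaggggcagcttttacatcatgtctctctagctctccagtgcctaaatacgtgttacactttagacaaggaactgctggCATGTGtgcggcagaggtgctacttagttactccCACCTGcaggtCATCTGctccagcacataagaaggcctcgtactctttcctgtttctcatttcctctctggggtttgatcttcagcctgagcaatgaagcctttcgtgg
Zar1: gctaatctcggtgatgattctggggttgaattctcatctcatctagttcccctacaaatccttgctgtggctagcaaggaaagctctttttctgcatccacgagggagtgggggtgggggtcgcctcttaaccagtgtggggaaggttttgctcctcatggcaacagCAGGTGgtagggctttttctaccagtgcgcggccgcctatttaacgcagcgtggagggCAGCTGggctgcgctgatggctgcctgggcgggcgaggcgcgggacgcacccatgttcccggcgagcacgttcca
Zp3: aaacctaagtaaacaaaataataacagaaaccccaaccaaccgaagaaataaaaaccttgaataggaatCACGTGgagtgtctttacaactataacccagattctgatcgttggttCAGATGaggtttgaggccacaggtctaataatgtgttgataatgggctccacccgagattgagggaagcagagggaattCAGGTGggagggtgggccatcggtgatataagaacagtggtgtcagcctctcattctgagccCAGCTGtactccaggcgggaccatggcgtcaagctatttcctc
Khdc3: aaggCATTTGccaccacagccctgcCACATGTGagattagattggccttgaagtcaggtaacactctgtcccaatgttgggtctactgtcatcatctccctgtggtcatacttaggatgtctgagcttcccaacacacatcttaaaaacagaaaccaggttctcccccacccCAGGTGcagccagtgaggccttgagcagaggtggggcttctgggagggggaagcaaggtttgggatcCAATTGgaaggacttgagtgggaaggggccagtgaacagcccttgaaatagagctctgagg
They lie at chr19:11691002-11691301 on the minus strand for Oosp1, chr5:72581035-72581334 on the minus strand for Zar1, chr5:135979855-135980154 on the plus strand for Zp3 and chr9:73102148-73102447 on the plus strand for Khdc3.

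The E-box occurred 5 times in the window of Oosp1, 2 times in Zar1, 4 times in Zp3 and 5 times in Khdc3, and some copies overlap. It was present in 31 of the 34 list members with an entry (91.2%), in 78.0% of 332 promoters of lost or partial rises, in 73.4% of 312 promoters of kept rises, in 65.4% of 12926 promoters of genes tested and in 72.2% of all 27025 promoters of that length, 1 per gene symbol. Searched on both strands, TAATTG, which the oocyte homeobox factor NOBOX is known to bind, was in 14.7% of the list, 9.64% of lost or partial rises, 8.01% of kept rises, 5.15% of genes tested and 8.15% of all promoters. For the TATA sequence TATAAA these shares were 14.7%, 17.2%, 11.9%, 8.99% and 14.2%. For each motif both classes of rises lay above the genes tested, and they differed from each other by less than 6 percentage points. A match is a description of the letters and not a binding site.

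Oosp1, an oocyte-secreted protein, had the most negative interaction among the named genes that passed the test. Its level in wild type was -7.82, -7.67 and -8.11 at E17.5 and -2.15, -2.01 and -2.71 at P0. In knockout it was -7.52, -7.29 and -7.94 at E17.5 and -7.27, -7.29 and -7.61 at P0. All 3 P0 wild-type arrays stood far above the other 9, on which the probe was not well above background. The wild-type rise was therefore at least 13.5-fold. This bound sets the bright group against a floor, taken on each array as the dimmest probe that still cleared background, or as Oosp1 itself where that was brighter. The fitted interaction was -5.38 (SE 0.26, limma adjusted p = 4.84e-07), and it rests on signals below the background mark in 3 of the 4 groups.

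Of the zona genes, Zp3 and Zp1 were partial. Zp3, the zona protein known as a sperm receptor, had levels of -2.80, -4.01 and -1.13 in wild type and -3.69, -4.44 and -3.88 in knockout at E17.5. The P0 levels were 2.99, 3.04 and 2.79 in wild type and -2.93, -2.37 and -1.83 in knockout. The P0 groups stood apart, while the E17.5 groups overlapped. The Zp3 interaction was -3.96 (SE 0.59, limma adjusted p = 0.00215), with changes of 5.99 in wild type and 2.03 in knockout, so that 33.9% of the log2 rise was retained. For Zp1, another zona protein, the interaction was -3.68 (limma adjusted p = 0.00228) with 36.4% retained, and 2 wild-type and 1 knockout array cleared background at E17.5. Zp2, the remaining member of the mouse zona, was in the kept class with changes of 4.22 in wild type and 2.84 in knockout, and its interaction of -1.39 did not pass. It was named after its values were seen.

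Maternal-effect genes, whose products act in the egg and early embryo, fell into both classes. Zar1, an oocyte RNA-binding protein, had levels of -4.50, -5.07 and -3.69 in wild type and -4.67, -4.93 and -5.32 in knockout at E17.5. By P0 they were 1.24, 1.53 and 1.11 in wild type and -3.50, -3.74 and -3.29 in knockout. The E17.5 groups overlapped, the P0 groups did not, and the interaction was -4.25 (SE 0.51, limma adjusted p = 0.000568) with 26.8% of the rise retained. Npm2, the histone chaperone nucleoplasmin, went from -1.22, -1.81 and -0.59 to 3.21, 3.46 and 3.18 in wild type. In knockout it went from -2.37, -2.54 and -2.38 to -2.13, -1.82 and -1.31, and the groups did not overlap at either stage. Its interaction was -3.82 (SE 0.31, limma adjusted p = 2.9e-05), with 18.05% of the rise retained. The fitted changes were 4.66 and 0.84.

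All 20 kept members of the oocyte list had values below wild type in knockout at E17.5, and 7 of these differences passed the test. The E17.5 difference depended on the run: for Nlrp14 the run A arrays gave -5.33 and the run B arrays -1.86. For Khdc3 these values were -3.67 and -1.22, and for Khdc1b, of the same family, -1.70 and 0.67. Nlrp14, of the maternal NLRP family, had levels of -2.25, -3.93 and -1.10 in wild type and -4.11, -5.78 and -6.44 in knockout at E17.5. At birth the levels were 3.65, 3.62 and 3.18 in wild type and -1.67, -0.98 and -0.23 in knockout. The groups were apart at both stages, by -3.02 at E17.5 (limma adjusted p = 0.027) and -4.44 at P0 (limma adjusted p = 0.00037), and the knockout still rose by 4.56. On the E17.5 knockout arrays only 1 of 3 was well above background. The Nlrp14 interaction was -1.43 (95% interval -3.49 to 0.64, limma adjusted p = 0.354), was -2.58 against run B alone and turned to 0.89 against the 2 run A arrays at E17.5. Khdc3, a subunit of the subcortical maternal complex, rose by 5.25 in wild type and 3.58 in knockout, and its interaction of -1.67 (95% interval -3.26 to -0.086) did not pass. The Khdc3 interaction was -0.046 against the run A arrays at E17.5 and -2.49 against run B. Across the list the 20 kept members had a median difference of -1.41 at E17.5 and -2.37 at P0. The 6 lost members had medians of -0.27 and -4.30, and the 9 partial members -0.66 and -3.83. Since the interaction that sorts the classes is the P0 minus the E17.5 difference, this contrast between classes follows from the sorting.

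**Figure D2:**
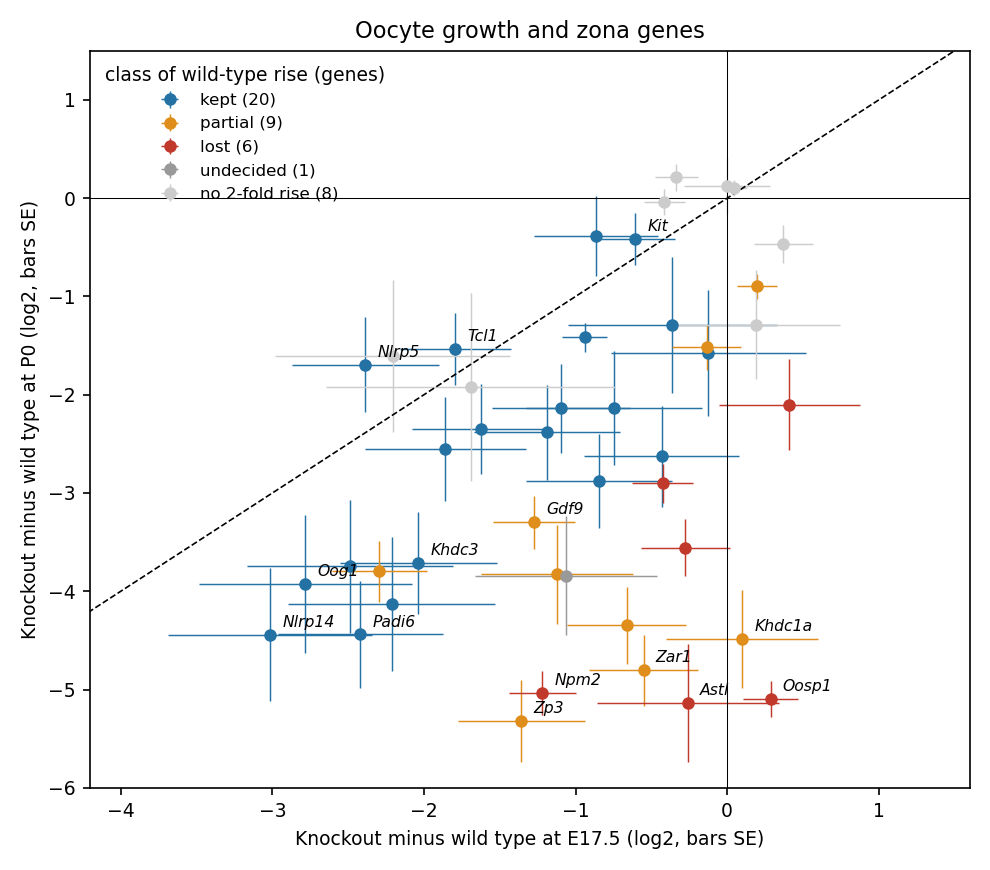
Knockout minus wild type at E17.5 (horizontal axis, log2) against the same at P0 (vertical axis, log2) for the 44 measured genes of oocyte growth and the zona, with standard errors as bars and the line of equal difference dashed. Lost and partial genes lie below the dashed line, and the kept genes spread around it, most of them below it and further to the left.

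Among secreted factors of the oocyte, Gdf9 was partial and Bmp15 undecided. Gdf9, a growth factor through which oocytes act on granulosa cells, had levels of 1.06, 0.82 and 1.81 in wild type and 0.59, -0.20 and -0.52 in knockout at E17.5. At P0 its levels were 4.61, 4.71 and 4.57 in wild type and 1.20, 1.23 and 1.56 in knockout. The groups did not overlap at either stage. The Gdf9 interaction was -2.02 (SE 0.38, limma adjusted p = 0.00697), with changes of 3.42 and 1.40, and it was -0.96 against the run A arrays and -2.56 against run B. Bmp15, the related oocyte factor, had changes of 2.55 in wild type and -0.23 in knockout, and its interaction of -2.78 missed the threshold (limma adjusted p = 0.056). It too was named after its values were seen.

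Among 15 measured genes of the oocyte transcription factor list, 3 interactions were negative and 1 was positive, against 6.12% and 4.28% of all genes. The negative members were Tbpl2, Pou5f1 and Dynll1, a dynein light chain, which changed by 0.18 in wild type and -0.59 in knockout (interaction -0.78, SE 0.12, limma adjusted p = 0.00267). Tbpl2, the TBP relative of growing oocytes, changed by 3.94 in wild type and 1.10 in knockout (interaction -2.84, SE 0.55, limma adjusted p = 0.00808), and was above background on 1 of 3 E17.5 and 2 of 3 P0 knockout arrays. Pou5f1, a pluripotency factor that oocytes also express, had P0 levels of -0.02, 0.0019 and 0.21 in wild type and -4.26, -3.45 and -3.29 in knockout. Its E17.5 levels of -3.36, -3.87 and -2.21 in wild type and -3.06, -4.71 and -3.99 in knockout overlapped. The Pou5f1 interaction was -2.96 (SE 0.62, limma adjusted p = 0.011). Tfap2c, a factor from the primordial germ cell list, had an interaction of -3.04 (SE 0.45, limma adjusted p = 0.00203), with changes of 2.51 and -0.53, and cleared background on 2 of 3 E17.5 and 1 of 3 P0 knockout arrays. Nr6a1, the germ cell nuclear factor GCNF and the positive member of the oocyte transcription factor list, went the other way: its interaction was 0.95 (SE 0.12, limma adjusted p = 0.000999), with a change of -0.53 in wild type and 0.42 in knockout. For Figla, Nobox and Lhx8, named after their values were seen, the interactions of 0.078, 0.19 and 0.24 did not pass, with standard errors of 0.29, 0.53 and 0.55. The wild-type changes of these 3 genes were 0.28, 0.85 and 0.59 and were not called either.

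Other genes with large lost or partial rises included several with levels well above background on all 12 arrays. Aspg, an asparaginase, went from -2.92, -3.39 and -2.23 to 0.95, 1.34 and 1.13 in wild type and from -3.53, -3.45 and -3.62 to -3.63, -3.40 and -3.18 in knockout. The knockout arrays of both stages overlapped, the P0 wild-type arrays stood apart, and the interaction was -3.86 (SE 0.29, limma adjusted p = 2.31e-05). Oas1c, of the oligoadenylate synthetase family, had an interaction of -3.08 (SE 0.40, limma adjusted p = 0.00092), with 38.2% of a wild-type rise of 4.97 retained. Zfp57, which maintains methylation at imprinted genes, changed by 1.28 in wild type and 0.068 in knockout (interaction -1.22, SE 0.17, limma adjusted p = 0.00131). Of 15 measured DNA methylation genes 3 had a negative interaction and 1 a positive one, against 6.12% and 4.28% of all genes. Patl2, an RNA-binding protein of the oocyte, changed by 1.71 and 0.43 (interaction -1.28, SE 0.17, limma adjusted p = 0.00113). Among 39 measured genes of processing bodies and mRNA decay 2 were negative and 2 positive, close to the 6.12% and 4.28% of all genes. The negative ones were Zar1 and Patl2 and the positive ones Dazl and Dcp2, so that Zar1 and Dazl are also counted in other lists. Dcp2, the decapping enzyme, was positive at 0.70 (SE 0.14, limma adjusted p = 0.0077), with changes of 0.17 in wild type and 0.87 in knockout.

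**Figure D3:**
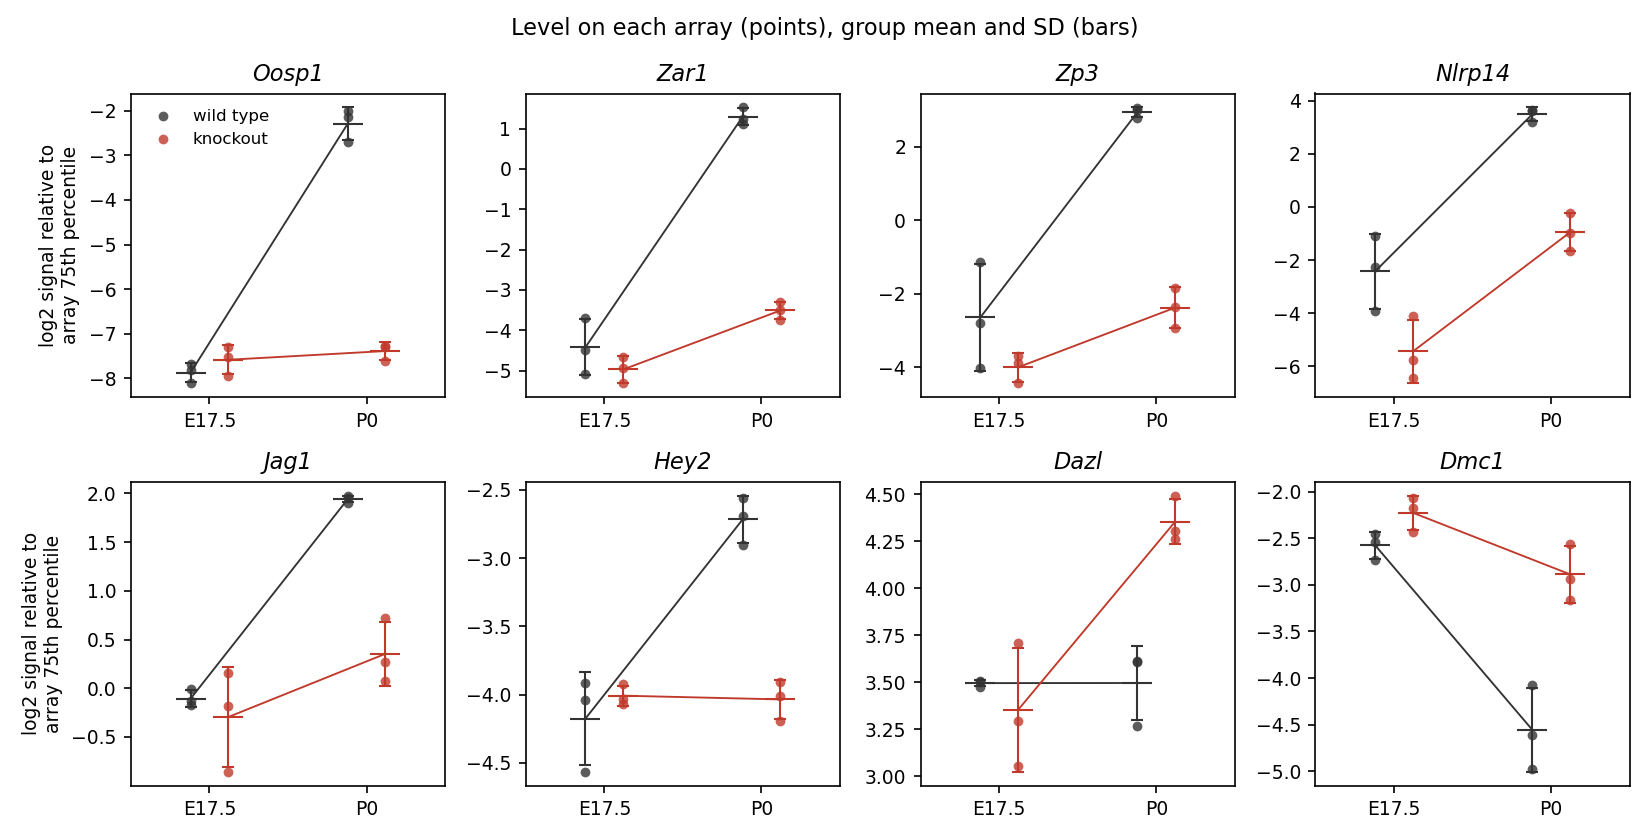
Log2 signal relative to the array's 75th percentile at E17.5 and P0 for 8 genes, with 3 arrays per group as points, group means and standard deviations as bars, wild type in grey and knockout in red. Oosp1 and Hey2 stay level in knockout, Zar1, Zp3 and Jag1 rise less, Nlrp14 rises from a lower start, Dazl rises in knockout alone and Dmc1 falls less.

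Notch genes moved in both directions. Of 21 measured, 4 interactions were negative and 4 positive, against 6.12% and 4.28% of all genes, and the median interaction was 0.10. Jag1, the ligand that oocytes present to pregranulosa cells, had levels of -0.01, -0.17 and -0.13 in wild type and 0.16, -0.18 and -0.86 in knockout at E17.5. The P0 levels were 1.90, 1.97 and 1.95 in wild type and 0.72, 0.074 and 0.27 in knockout. The E17.5 groups overlapped and the P0 groups did not, and the interaction was -1.40 (SE 0.24, limma adjusted p = 0.00482) with 26.4% of the rise retained. It was -0.86 against the run A arrays and -1.67 against run B.

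The Jag1 promoter is shown in the same form, at chr2:137116471-137116770 on the minus strand of GRCm38.p6, because the ligand is the Notch gene that oocytes present; it holds 1 E-box, in capitals.
Jag1: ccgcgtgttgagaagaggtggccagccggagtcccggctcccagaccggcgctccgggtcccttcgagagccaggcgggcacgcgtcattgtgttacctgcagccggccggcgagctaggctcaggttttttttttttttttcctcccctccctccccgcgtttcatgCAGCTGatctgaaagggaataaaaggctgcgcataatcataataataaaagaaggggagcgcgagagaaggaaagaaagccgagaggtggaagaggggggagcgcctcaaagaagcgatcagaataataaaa

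Hey1, Hey2 and Heyl, repressors that are Notch targets, had negative interactions as well. Hey2 went from -4.57, -3.92 and -4.04 to -2.69, -2.56 and -2.90 in wild type and from -4.03, -3.92 and -4.07 to -4.01, -4.19 and -3.91 in knockout. Only the P0 wild-type arrays stood apart, and the interaction was -1.49 (SE 0.23, limma adjusted p = 0.0026). Hey1 changed by 0.57 in wild type and -0.46 in knockout (interaction -1.03, SE 0.18, limma adjusted p = 0.00462). Heyl changed by 0.72 and -0.099 (interaction -0.82, SE 0.15, limma adjusted p = 0.00645). The positive members were the ligand Dll1 (0.79), the targets Hes1 (0.64) and Hes5 (0.96) and the coactivator Maml1 (0.38), named after their values were seen, and the Notch receptors did not pass. Thus Hey1, Hey2 and Heyl had interactions opposite in sign to those of Hes1 and Hes5, which were named because they were called.

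Pregranulosa and granulosa genes held 4 negative and 3 positive interactions among 34 measured, against 6.12% and 4.28% of all genes, with a median of 0.095. The list shares Jag1 and Hey2, both negative, and Hes1, positive, with the Notch list. These calls are therefore counted in both lists and are no separate excess in pregranulosa genes. Hsd17b1, which makes oestradiol from oestrone, had an interaction of -1.47 (SE 0.33, limma adjusted p = 0.017), with changes of 1.33 in wild type and -0.14 in knockout. Inhbb, the activin beta B subunit, changed by 0.41 and -0.51 (interaction -0.92, limma adjusted p = 0.013). Foxl2, the factor that maintains granulosa identity, had an interaction of 0.077 that did not pass (SE 0.16), with changes of 0.37 and 0.45. For Wnt4, a WNT ligand of ovarian differentiation, it was 0.078 (SE 0.15). Both were named after their values were seen.

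In the TGF-beta, BMP and activin list 7 interactions were positive and 5 negative among 39 measured, against 4.28% and 6.12% of all genes. All 4 inhibitors of differentiation, Id1 to Id4, which are BMP targets, were among the positive ones. Id3 had levels of 3.79, 3.79 and 3.63 in wild type and 3.28, 3.38 and 3.54 in knockout at E17.5. By P0 they were 2.85, 2.71 and 2.75 in wild type and 3.62, 3.51 and 3.44 in knockout. The genotypes changed places without overlap at either stage, and the interaction was 1.10 (SE 0.13, limma adjusted p = 0.000577). Id4 changed by -1.24 in wild type and -0.099 in knockout (interaction 1.14, SE 0.19, limma adjusted p = 0.0042). The interactions of Id1 and Id2, named after their values were seen, were 0.89 and 0.66. Acvr1, a BMP receptor also named afterwards, was positive at 0.56, and Bmpr1b, another, negative at -0.77.

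Most called genes of meiotic prophase had positive interactions, against 4.28% positive and 6.12% negative among all genes. Of 20 measured genes of the meiotic chromosome axis and synaptonemal complex, 7 interactions were positive, 1 negative and 12 not called, with a median of 0.39, a median change of -0.48 in wild type and -0.096 in knockout. Of 21 recombination genes, 4 were positive, 1 negative and 16 not called, with a median of 0.20. Dmc1, the meiotic recombinase, went from -2.45, -2.54 and -2.73 to -4.61, -4.98 and -4.08 in wild type. In knockout it went from -2.43, -2.07 and -2.18 to -2.94, -2.56 and -3.16. The knockout arrays lay above the wild-type arrays at both stages, narrowly so at E17.5, and the interaction was 1.32 (SE 0.29, limma adjusted p = 0.014) with 34.3% of the fall retained. Mei1, needed for meiotic breaks, changed by -1.30 in wild type and -0.16 in knockout (interaction 1.14, SE 0.16, limma adjusted p = 0.00134), a lost fall. Stag3, the meiotic cohesin, rose by 0.80 in knockout and changed by -0.34 in wild type (interaction 1.15, SE 0.17, limma adjusted p = 0.00199).

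Not all prophase genes followed. Spo11, which makes the breaks and was named, like Sycp3, after its values were seen, fell by 1.82 in wild type and by 1.16 in knockout and was kept, with an interaction of 0.66 that missed the threshold (limma adjusted p = 0.056). Sycp3, of the lateral element, had an interaction of -0.054 that did not pass. Mnd1 and Kash5, a recombination cofactor and a telomere attachment protein, were negative at -0.74 and -0.68 with wild-type rises of 1.06 and 0.95. Stra8, the meiotic entry gene, differed at both stages, by 2.06 at E17.5 and 3.26 at P0, and its interaction of 1.20 (SE 0.61, limma adjusted p = 0.22) did not pass. None of the 17 measured retinoic acid and meiotic entry genes had a called interaction by limma.

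Of 35 measured germ cell genes expressed through these stages 8 interactions were positive, 27 were not called and none was negative, against 4.28% positive and 6.12% negative among all genes. The median was 0.51 over the list, 0.82 with the run A and 0.26 with the run B E17.5 arrays. Dazl, a germ cell translation regulator, had levels of 3.51, 3.48 and 3.50 in wild type and 3.71, 3.29 and 3.06 in knockout at E17.5. At birth the levels were 3.61, 3.27 and 3.61 in wild type and 4.49, 4.31 and 4.26 in knockout. The P0 knockout arrays were above the other 9, and the interaction was 1.00 (SE 0.18, limma adjusted p = 0.0061). Tex19.1, which restrains retrotransposons, had an interaction of 1.25 (SE 0.21, limma adjusted p = 0.00409), with changes of -0.41 and 0.84. Taf7l, a germ cell TFIID subunit, changed by -1.07 in wild type and 0.49 in knockout (interaction 1.56, SE 0.26, limma adjusted p = 0.00356). The summed level of the list, on the log2 scale, lay between 7.88 and 8.16 in wild type and between 7.66 and 8.12 in knockout at E17.5, and between 8.22 and 8.28 and between 8.31 and 8.57 at P0. The summed level was higher in knockout at P0, where the levels of the oocyte growth list were lower. The median level of the germ cell list overlapped at P0, between 2.26 and 2.45 in wild type and between 2.03 and 2.43 in knockout.

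Among the named genes that passed the test, those with the most positive interactions were mostly lost falls at low levels. Wnt3, a WNT ligand, went from -4.34, -4.12 and -4.47 to -6.58, -6.21 and -5.95 in wild type and from -5.25, -5.12 and -4.64 to -4.30, -4.02 and -4.42 in knockout. The P0 wild-type arrays were not well above background, the wild-type fall was at least 2.45-fold and the interaction was 2.69 (SE 0.32, limma adjusted p = 0.000568). Another Wnt3 probe had the same sign with a smaller interaction of 1.26. Its changes were -0.59 in wild type, less than a 2-fold fall, and 0.67 in knockout. Ankrd34b, an ankyrin repeat protein, changed by -2.31 in wild type and 0.060 in knockout (interaction 2.37, SE 0.37, limma adjusted p = 0.00292). Adad1, a testis RNA-binding protein, changed by -1.98 and -0.40 (interaction 1.57, SE 0.23, limma adjusted p = 0.00178). For Nkx2-4, Pax6 and Cbln2 the interactions were 2.39, 2.38 and 2.40, and another probe of each gene had the opposite sign, at -0.45, -0.75 and -1.16. A further Cbln2 probe gave 2.39. Cbln2 was not a lost fall, with changes of -0.36 in wild type and 2.04 in knockout. The Pax6 value rests on a probe below background on all P0 wild-type arrays.

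A further set passed the 2-fold mark in knockout and not in wild type. This class holds genes with a called knockout change of at least 2-fold, a called interaction of the same sign and no called 2-fold change in wild type, where some still changed by less. It held 91 rises and 89 falls, marked as knockout only in the plot of changes, with medians of 1.31 and -1.34 in knockout and 0.27 and -0.26 in wild type. Galnt15, a glycosyltransferase, rose by 2.23 in knockout and 0.99 in wild type (interaction 1.24, SE 0.21, limma adjusted p = 0.0038). Outside this class, Trim27, a ubiquitin ligase, had a rise that was larger in knockout. It rose by 1.82 in wild type and 2.71 in knockout (interaction 0.88, SE 0.21, limma adjusted p = 0.022). Another Trim27 probe did not rise, with changes of -0.34 in wild type and -0.32 in knockout and an interaction of 0.024.

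Cell division and sterol synthesis lists also held only negative calls. Of 34 measured cell division genes 10 were negative, against 6.12% of all genes, with a median interaction of -0.44, a median change of 0.16 in wild type and -0.30 in knockout. Tyms, which makes thymidylate, had levels of 3.01, 2.71 and 2.62 in wild type and 2.98, 2.94 and 3.27 in knockout at E17.5. At P0 its levels were 3.59, 3.71 and 3.61 in wild type and 2.90, 2.74 and 2.90 in knockout. The E17.5 groups overlapped and the P0 groups did not, and the interaction was -1.08 (SE 0.22, limma adjusted p = 0.00972). Aurkb, a mitotic kinase, changed by 0.61 and -0.65 (interaction -1.25, SE 0.25, limma adjusted p = 0.0093). Of the 12 arrays, E17.5 knockout replicate 3 had the highest median level of the cell division list, at 2.85, and of the red cell list, at 2.45. Over all 23 red cell genes the summed log2 level lay between 9.28 and 10.2 in E17.5 knockout and between 7.67 and 7.89 in P0 knockout, against 8.73 to 9.25 and 7.16 to 8.76 in wild type, and none of their interactions was called by limma. The part of red cell RNA in the cell division values was not tested, and without that array, when run A drops out of the comparison, the cell division median was -0.34.

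Of 24 sterol synthesis genes 6 were negative, against 6.12% of all genes, with a median interaction of -0.32. Fdft1, squalene synthase, had levels of 1.56, 1.69 and 2.23 in wild type and 1.22, 0.89 and 1.48 in knockout at E17.5. The P0 levels were 2.72, 2.73 and 2.79 in wild type and 1.37, 1.10 and 1.25 in knockout. The groups did not overlap at either stage, and the interaction was -0.88 (SE 0.14, limma adjusted p = 0.0031). Fdps, which makes farnesyl diphosphate, changed by 0.59 in wild type and -0.076 in knockout (interaction -0.66, SE 0.13, limma adjusted p = 0.0073). With arrays scaled on their medians the interaction of every gene shifted up by about 0.16, from a median of -0.016 to 0.14 over all genes. The medians were then -0.28 for cell division and -0.15 for sterol synthesis, against 0.14 for all genes, and Fdps was no longer called.

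Lists of other cell types held between 0 and 5 calls each. Of 28 stromal genes 2 were positive, of 22 endothelial genes 2, of 16 surface epithelium genes 1 and of 15 mesonephric duct genes 2, against 4.28% of all genes, and none was negative. Of 17 genes associated with Sertoli cells, the supporting cells of the testis, 4 were negative and 1 positive, and of 20 nerve and Schwann cell genes 2 were negative, against 6.12% of all genes negative. No interaction was called by limma among 25 macrophage and leukocyte genes or 19 muscle genes.

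**Figure D4:**
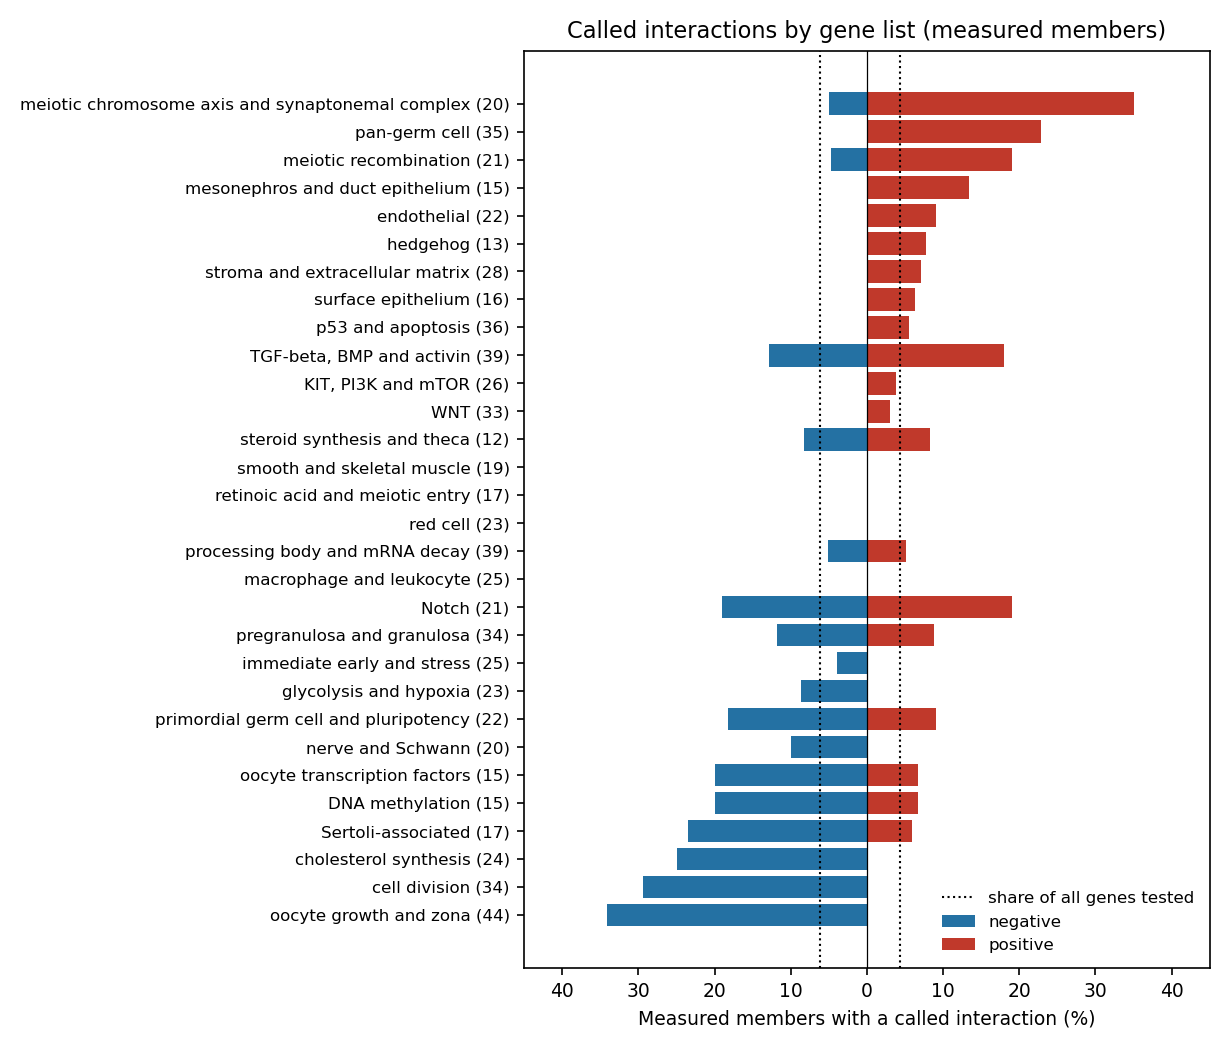
Share of measured members with a called interaction, in percent, negative to the left and positive to the right, for gene lists with at least 12 measured members (number in brackets), with dotted lines at the shares of all genes, 6.12% and 4.28%. Oocyte growth and zona genes have the longest negative bar and genes of the meiotic chromosome axis and synaptonemal complex the longest positive bar.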

How the data were processed

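Gene expression was measured in 18 samples of whole mouse gonad, 3 for each stage and genotype, of which the 12 at E17.5 and P0 enter the interaction. The deposited scanner files hold intensities that the authors obtained with Agilent Feature Extraction, whose version is 10.7.3.1 in the file headers, whereas the submitters' processing notes give 9.5. The deposited series matrix holds log2 values, which equal the log2 intensity plus 1 constant per array; they were used as an alternative. The main values are log2 of the processed intensity minus each array's 75th percentile, without control probes and outlier spots; no spot was saturated. Probes that cleared background on every array of any 1 group were kept (29203 probes), and the probe with the highest mean stood for its gene. Names came from the RefSeq GRCm38.p6 table through accessions for 28215 of 41174 probes, and the other 12959 kept the file's name. The 18 arrays were fitted together with limma 3.58.1 in R 4.3.3, with a term for each of the 6 groups and 1 for the run, and with 11 residual degrees of freedom, and p-values were adjusted by the Benjamini-Hochberg method over 19299 genes. On simulated data with this design, 67 of 19299 genes were changed at each of 3 sizes. Of these, 29.9% of 1.5-fold, 61.2% of 2-fold and 86.6% of 4-fold interactions were recovered, and 4.03% of 124 calls were false. The measured data gave 2008 calls, so the simulated share of changed genes differs and these rates may not carry over. The number of arrays limits the precision.

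The genes named are Elavl2, the 12 largest called interactions each way, the 6 largest wild-type changes of each class, the 6 largest knockout-only changes each way, and up to 4 members of each of 33 lists with the smallest interaction p. Others are marked where they occur. The members and lists were chosen with earlier results of these data known. Alternatives were other background corrections, scalings, filters, run and slide terms, array weights, class thresholds and leaving out each array. Whether replicate numbers pair the arrays was checked on deviations from group means, correlated across genes: same-numbered arrays gave 0.12 to 0.45 between genotypes at E17.5 and 0.081 to 0.15 at P0, and values on both sides of 0 between stages, so the numbers do not pair the 4 groups. Run was not removed from these deviations, and replicate 3 of both E17.5 groups shared run A and a slide. The E17.5 values therefore cannot tell pairing from run or slide.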

Additional observations from a re-analysis of the deposited data

Results flagged for a closer look

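The genotype difference itself changed between E17.5 and P0, by the test of the interaction, for 826 genes in the positive and 1182 genes in the negative direction (limma, adjusted p under 0.05), of 19299 genes. Groups of 3 arrays were not tested for samples that stand apart.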

How the results depend on the processing

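The main counts were 826 positive and 1182 negative interactions, with 349 lost, 136 partial and 449 kept rises and 44 lost, 44 partial and 337 kept falls. The scaling set the balance of signs: 41.1% of called interactions were positive, against 68.7% with array-median scaling, which moved the median interaction of all genes from -0.016 to 0.14 and gave 1477 positive and 674 negative genes, 96 lost and 96 partial falls. Quantile normalization gave 84 lost and 74 partial falls. Normexp background correction with quantile normalization gave 117 lost and 150 kept rises and 17 lost and 111 kept falls. Without a filter on dim probes 510 interactions were positive and 26 falls partial. Without a run term there were 448 positive and 583 negative interactions, 162 lost and 79 partial rises. With run B arrays alone at E17.5 and P0 there were 477 positive interactions and 29 partial falls, and with slide as a random block 27 partial falls. Fitting only the 12 arrays gave 632 lost rises and 26 partial falls, with 27.8% of calls positive. Array weights gave 1778 positive and 2206 negative interactions, 527 lost and 223 partial rises and 80 lost and 110 partial falls. The causes of these shifts were not tested.

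Requiring a 2-fold interaction left 172 positive and 546 negative genes. Wild-type changes of at least 4-fold gave 129 lost, 75 partial and 152 kept rises and 4 lost, 14 partial and 34 kept falls, and changes of any size gave 650 lost and 1812 kept rises and 314 lost, 73 partial and 2262 kept falls. Calling a change lost below 50% retained left 13 partial rises, 82 lost falls and 6 partial falls. Alternatives were also added after seeing the data. With the run A arrays alone at E17.5 there were 265 positive and 522 negative interactions, 160 lost and 14 partial rises and 23 lost and 1 partial falls. Among genes above the median level there were 497 positive and 437 negative interactions, with 21 lost, 25 partial and 97 kept rises and 10 lost, 15 partial and 82 kept falls.

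Leaving out each array in turn gave 383 to 971 positive and 665 to 1111 negative interactions, 209 to 340 lost, 88 to 139 partial and 355 to 478 kept rises, and 28 to 73 lost, 17 to 72 partial and 262 to 370 kept falls. The lowest counts of positive, negative, lost and partial genes all came without P0 wild-type replicate 2, and the highest counts of positive genes and of lost and partial falls without P0 wild-type replicate 3. Positive counts also moved by over 1.5 times without E17.5 wild-type replicate 1 (546), replicate 2 (513) or replicate 3 (477), and E17.5 knockout replicate 2 (465) or replicate 3 (477). Negative counts did so without E17.5 knockout replicate 2 (757). Partial falls did so without every array except P0 wild-type replicate 1 and P0 knockout replicates 2 and 3. With the replicate number as a block, 738 interactions were positive and 1055 negative, and 1665 of the 1793 calls were among the 2008, though the numbers do not pair all 4 groups. At E17.5 same-numbered arrays of the genotypes each correlated above 0.1, with run not removed, so that pairing and run cannot be told apart. A replicate block among those arrays alone, in place of the run term and added after seeing the data, gave 709 positive and 1026 negative interactions. Of these 1735 calls, 1701 were among the 2008.

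Some interactions changed sign. Those of Pdilt, Hba-x, Fancf and Elavl1 were near 0 in the main fit, at 0.14, 0.041, -0.061 and -0.066. Leaving out each array in turn gave -0.29 to 0.41 for Pdilt, -0.64 to 0.79 for Hba-x, -0.47 to 0.15 for Fancf and -0.14 to 0.050 for Elavl1. Pdilt was -0.023 with normexp, -0.37 with array weights and -0.41 with run A. Hba-x was -0.012 with quantile normalization, -0.056 with the slide block and -1.47 with run A. Fancf was 0.14 with quantile normalization, 0.099 with median scaling, 0.0002 with the slide block and 0.75 with run A. Elavl1 was 0.095 with median scaling, 0.0072 with the mean of probes and 0.076 with run A. With the mean of probes Nr1d1 was -1.07 and Fzd2 -0.069, against 1.19 and 0.31 in the main fit. With run A alone Nlrp14 was 0.89, Oas1d 1.19, Myot 1.87, Pla2g4f 0.030, Khdc1b 0.13, Dct -0.018 and Cnn1 0.25. In the same order their main values were -1.43, -1.10, -0.96, -2.19, -1.45, 0.90 and -0.50, so these were not all near 0. Dim signals limit the classes: 46.4% of lost and 31.9% of undecided rises cleared background on all 12 arrays.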
